A study of Mus musculus with 54 samples.

Results

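The Kruppel-like factors Klf2, Klf3, Klf4, Klf6, Klf7, Klf10 and Klf13 were followed in primary mouse microglia that were loaded with alpha-synuclein (aSyn) and then mixed with cells that had received none. The 7 genes were taken by symbol from a table of 16632 genes, as the members of the family known from myeloid cells. Klf2 was chosen by its fall over co-culture in these counts, so its levels in aSyn-exposed cells, in donors and against acceptors are given as a description with no test. The other 6 genes were tested in each comparison, and Klf2 was tested only in acceptors against untreated cells. All 7 passed the filter on low counts.

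Microglia came from neonatal C57BL/6 mice, with the cells of 2 brains pooled in a flask, grown with L929 cell supernatant and shaken off the astrocytes beneath them. Untreated cells (Untreated_Ctrl) received neither protein nor dye, per the labels. Donors received 1 µM aSyn labelled with Atto-488 for 14 h, and the group named aSyn_Donor, here aSyn-only cells, was not placed in co-culture. Acceptors were stained with CellTracer Violet for 15 min. Donors and acceptors then shared a culture, in groups that ended at 15, 30, 60, 150 or 300 min, were sorted apart by flow cytometry and sequenced separately, and each also has a group labelled 0 min, whose handling the labels do not describe further. Whether untreated and aSyn-only cells passed through the sorter is not stated, so dye, sorting and co-culture cannot be told apart in acceptors against untreated cells. In donors against aSyn-only cells, sorting, co-culture and time since aSyn exposure cannot be told apart either, as no aSyn-only group was timed. Donors and acceptors differ in both aSyn and dye.

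The 54 libraries fell into 14 groups, numbered 1 to 4 by the replicate in their titles. Libraries 1 share passage 3, libraries 2 share passage 1, and libraries 3 and 4 share passage 2, and each number is called an experiment here. Same-numbered untreated libraries were summed, which left 52 samples with 3 or 4 per group. Library totals ran from 7807389 to 15537493 counts, and levels are given in CPM, counts divided by the library total after TMM scaling. The microglial marker list (10 of 10 genes with a row) summed to 1563 to 5565 CPM per sample, although its members P2ry12 and Tmem119 stayed at or below 12.3 and 13.1 CPM. Its lowest sample stood at 3625 CPM in untreated cells and 3184 in acceptors, but at 1788 in aSyn-only cells and 1563 in donors. The medians were 4396 CPM in untreated and 3549 CPM in aSyn-only cells. Over all genes the variation between samples of a group was 38.1% (edgeR's biological coefficient of variation), and 21.0% once the experiment number was in the fit.

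Kruppel-like factors are zinc-finger transcription factors that bind GC-rich and CACCC sequences. Klf2 keeps T cells quiescent, is switched on by fluid flow in endothelium through the Map2k5, Mapk7 and Mef2 pathway, and restrains inflammatory gene expression in monocytes. Klf4 drives monocyte differentiation and alternative macrophage activation, while Klf6 favours inflammatory macrophage gene expression. Klf10 was first found as an early gene induced by TGF-beta, Klf13 activates Ccl5 in lymphocytes, Klf3 is a repressor that recruits CtBP proteins, and Klf7 is best known from neurons and fat cells.

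The 250 bases before the RefSeq start of Klf2 and Klf4 are shown because these were the members with the widest range of group levels. Promoter sequence was matched by symbol for 6 of the 7 genes (RefSeq, GRCm38.p6, the mm10 assembly). Klf2 lies on the plus strand (chr8:72318812-72319061) and Klf4 on the minus strand (chr4:55532476-55532725), each printed 5′ to 3′ along its gene. Capitals mark matches on either strand to the MEF2 motif, searched by its name, and to the Kruppel-like factor box CCNCNCCC, and overlapping matches run together.
Klf2: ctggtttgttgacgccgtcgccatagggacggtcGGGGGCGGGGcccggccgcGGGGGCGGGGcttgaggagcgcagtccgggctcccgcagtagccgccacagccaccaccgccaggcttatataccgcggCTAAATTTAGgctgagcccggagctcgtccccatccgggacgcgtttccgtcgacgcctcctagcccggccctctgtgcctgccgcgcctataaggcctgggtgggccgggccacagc
Klf4: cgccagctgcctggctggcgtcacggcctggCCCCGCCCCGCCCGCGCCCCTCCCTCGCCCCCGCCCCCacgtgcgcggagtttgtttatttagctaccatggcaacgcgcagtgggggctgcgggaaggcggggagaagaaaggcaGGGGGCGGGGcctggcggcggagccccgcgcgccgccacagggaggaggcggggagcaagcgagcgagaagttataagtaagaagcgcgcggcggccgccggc
The Klf2 window held 1 MEF2 match, CTAAATTTAG, from 118 to 109 bases before the start, and 4 matches to CCNCNCCC in 2 overlapping clusters. The Klf4 window held no MEF2 match and 9 matches to CCNCNCCC. Among the other windows CCNCNCCC matched 10 times in Klf3, 8 times in Klf7, 5 times in Klf13 and 2 times in Klf6, none held a MEF2 match, and the forkhead motif GTAAACA matched in none of the 6. Over 32851 promoter windows of the same length, 2.92% held a MEF2 match, 45.9% a CCNCNCCC match and 3.17% a GTAAACA match. A match describes the letters in the window and not a bound site.

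Klf2 (chromosome 8, 72319033 to 72321656, plus strand, GENCODE M21) was high in aSyn-only cells and in donors up to 60 min, and fell back to the untreated level in donors by 300 min. In untreated cells it stood at 18.9, 35.0, 18.3 and 13.9 CPM in experiments 1 to 4 (mean 21.5 ± 9.24 SD, n = 4). In aSyn-only cells it stood at 202, 88.9, 126 and 108 CPM (mean 132 ± 49.6, n = 4). Every aSyn-only sample was above every untreated one, with a ratio of means of 6.11, and the fitted difference was 2.61 on the log2 scale. Within experiments the log2 difference ran from 1.34 in experiment 2 to 3.41, and leaving out experiment 2 gave 3.12.

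Donors kept this high level through the first hour. Klf2 was 261.3, 105 and 162 CPM at 0 min in experiments 1 to 3 (176 ± 79.2, n = 3), 342, 116, 166 and 129 at 15 min (188 ± 105, n = 4), and 324, 81.2, 203 and 166 at 30 min (193 ± 101, n = 4). At 60 min it was 129, 166 and 151 CPM in experiments 1, 3 and 4 (149 ± 18.9, n = 3). Experiment 1 gave the highest donor sample at 0, 15 and 30 min but the lowest at 60 min. At 150 min Klf2 was 45.3, 25.1, 82.4 and 56.3 CPM (52.3 ± 23.9, n = 4), and at 300 min 33.0, 22.7, 21.3 and 8.07 CPM (21.3 ± 10.2, n = 4).

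Set against aSyn-only cells, the fitted log2 differences of Klf2 in donors were 0.42, 0.52, 0.56 and 0.18 at 0, 15, 30 and 60 min, and Klf2 fell by 1.33 and 2.63 at 150 and 300 min. All donor samples at 150 and at 300 min lay below all aSyn-only samples, and each was lower in 4 of 4 experiments. The aSyn-only mean was 2.51 times the 150 min mean and 6.18 times the 300 min mean. These 6 comparisons share the same aSyn-only libraries, and the fall is what Klf2 was chosen for. In cells sequenced in bulk, a lower count per cell and fewer cells that express the gene cannot be told apart.

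**Figure D1:**
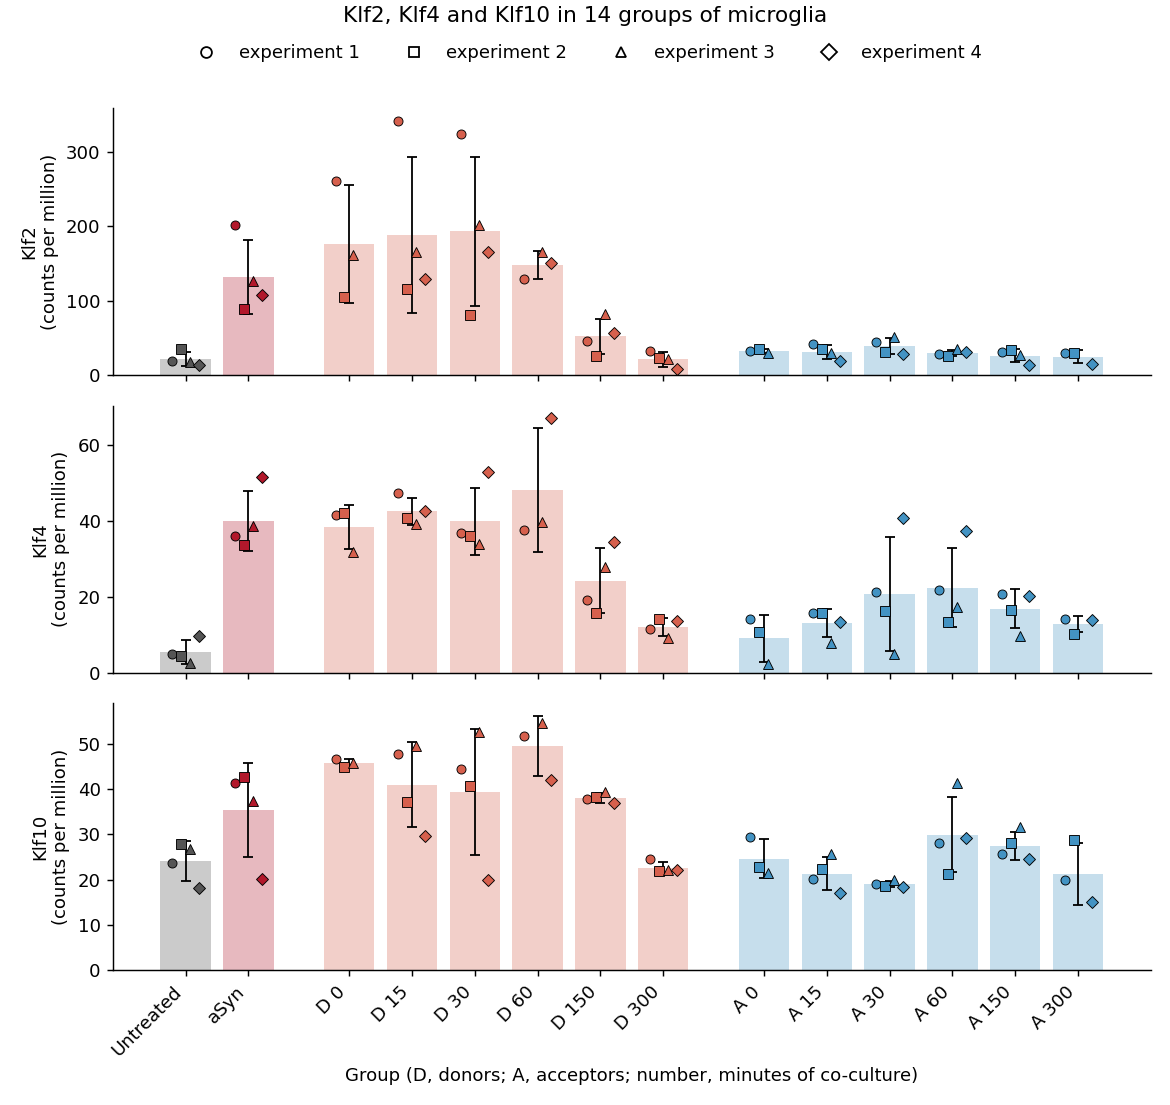
Klf2, Klf4 and Klf10 in CPM (vertical axis, linear, from 0) in each of 14 groups (horizontal axis; D, donors; A, acceptors; number, minutes of co-culture). Bars are group means, error bars 1 SD over 3 or 4 samples, and symbols single samples by experiment. Klf2 stood between 81.2 and 342 CPM in donors up to 60 min and between 8.07 and 33.0 CPM at 300 min, while its acceptor bars stayed between 25.1 and 39.2 CPM.

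Acceptors showed no rise of Klf2 past the test. Its acceptor means were 32.7 ± 2.67 CPM at 0 min (n = 3), 31.2 ± 9.79 at 15 min, 39.2 ± 10.6 at 30 min, 30.2 ± 4.24 at 60 min, 26.5 ± 8.94 at 150 min (each n = 4) and 25.1 ± 8.94 at 300 min (n = 3). Against untreated cells the fitted log2 differences were 0.60, 0.53, 0.86, 0.49, 0.30 and 0.22 in that order. The largest, at 30 min, had a standard error of 0.39 and an edgeR adjusted p of 0.640, or 0.174 with the experiment number as a block. Acceptor and untreated samples overlapped at each time. Donors exceeded acceptors by 2.43, 2.59, 2.30 and 2.30 log2 units at 0, 15, 30 and 60 min with no overlap of samples, and the differences at 150 and 300 min were 0.98 and -0.24, with overlap.

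Ordered by mean, the Klf2 levels ran from donors at 30, 15, 0 and 60 min and aSyn-only cells down to donors at 150 min, then acceptors at 30, 0, 15, 60, 150 and 300 min, untreated cells and donors at 300 min. Between neighbours in that order, the mean ± SD ranges were apart only between aSyn-only cells and donors at 150 min, and all the other neighbouring ranges overlapped. Group accounted for 85.4% of the variation of Klf2 in log2 CPM and experiment for 6.74%. The medians over all genes tested were 25.0% and 33.9%, but Klf2 was chosen for its fall over co-culture, so the comparison is no test.

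Klf4 (chromosome 4, 55527143 to 55532466, minus strand) rose with aSyn. It stood at 5.05, 4.32, 2.66 and 9.76 CPM in untreated cells (5.45 ± 3.05, n = 4) and at 36.03, 33.5, 38.6 and 51.3 CPM in aSyn-only cells (39.9 ± 7.91, n = 4). The groups did not overlap, and the ratio of means was 7.32. The log2 difference was 2.85 (SE 0.44, edgeR adjusted p = 0.000176), higher in 4 of 4 experiments by 2.38 to 3.78. It was called at this level with any 1 experiment left out, at 2.65 to 3.17.

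Of the 6 members tested for aSyn against untreated cells, 1 was called, Klf4, where 2.5% of all 13169 genes were. With the experiment number as a block 4 of 6 were called, all higher, where 19.2% of all genes were. The 3 added members were Klf6 (log2 difference 0.42, edgeR adjusted p = 0.0310), Klf10 (0.54, adjusted p = 0.0221) and Klf13 (0.54, adjusted p = 0.00915). Their unblocked edgeR adjusted p-values were 0.527, 0.166 and 0.211, and each was higher in 4 of 4 experiments. Leaving out 1 experiment in the blocked fit left 1 to 3 calls. There Klf6 was called only without experiment 2 (edgeR adjusted p = 0.0391, otherwise 0.0510 to 0.167) and Klf10 only without experiment 4 (0.00517, otherwise 0.0639 to 0.143). Klf13 lost its blocked call only without experiment 1 (edgeR adjusted p = 0.0812). The median over the 6 members was 0.49, against -0.04 over all genes tested.

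Markers of endothelium, another cell type with high Klf2 and Klf4, were read beside this result. Of 7 listed markers, 5 had a row, and their sum was 55.8 to 104 CPM in untreated and 76.7 to 96.6 CPM in aSyn-only cells, mostly Flt1 and Kdr. Cdh5 stayed at or below 1.57 CPM and was at 0 in 14 of 52 samples. Pecam1 rose with aSyn (2.53, SE 0.70, edgeR adjusted p = 0.0389) but reached no more than 3.06 CPM in any sample. The astrocyte list summed to 6.36 to 135 CPM in untreated and 4.90 to 27.5 in aSyn-only cells, and the oligodendrocyte list to 116 to 573 and 79.2 to 246.03 CPM. The part of these cells in the Kruppel-like factor levels was not tested.

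In donors Klf4 stood near the aSyn-only level through 60 min, and its lowest donor level was at 300 min. Its donor means were 38.3 ± 5.75 CPM at 0 min (n = 3), 42.4 ± 3.52 at 15 min, 39.8 ± 8.80 at 30 min (each n = 4), 48.1 ± 16.3 at 60 min (n = 3) and 24.2 ± 8.47 at 150 min (n = 4). At 300 min the samples stood at 11.4, 14.1, 9.08 and 13.5 CPM (12 ± 2.26, n = 4), all below the lowest aSyn-only sample and lower in 4 of 4 experiments. The log2 difference from aSyn-only cells at 300 min was -1.73 (SE 0.42, edgeR adjusted p = 0.293), and it was called with the block (fell by 1.74, adjusted p = 0.00283) and by unblocked DESeq2 (adjusted p = 0.0441). At 150 min it was -0.72 (edgeR adjusted p = 1), also lower in 4 of 4 experiments but with overlapping samples.

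Over the 36 tests of donors against aSyn-only cells, edgeR called no member, and 3 had an unadjusted p under 0.05. Over all genes, edgeR called 0% at 0, 15, 30, 60 and 150 min and 0.0304% at 300 min. DESeq2 called 1 member, Klf4 at 300 min, where it called 7 of 13148 genes. With the block the only call was Klf4 at 300 min, where 0.304% of all genes were called. That call was not made when experiment 1 or experiment 2 was left out of the blocked fit (edgeR adjusted p = 0.0997 and 0.0667). Klf10 at 300 min had a log2 difference of -0.64 (SE 0.22, edgeR adjusted p = 1, blocked 0.150) and lower in 3 of 4 experiments.

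Acceptors, which were not loaded with aSyn, had more Klf4 than untreated cells at 30 and 60 min. At 30 min the samples stood at 21.1, 16.1, 4.95 and 40.7 CPM (20.7 ± 14.9, n = 4), and experiment 3 lay inside the untreated range. At 60 min they stood at 21.8, 13.4, 17.2 and 37.2 CPM (22.4 ± 10.4, n = 4), all above the untreated samples. The log2 differences were 1.90 (SE 0.42, edgeR adjusted p = 0.0483) and 2.01 (SE 0.42, edgeR adjusted p = 0.0363), higher in 4 of 4 experiments at both times. Without the block neither call was made when any 1 experiment was left out, at 1.82 to 2.12 (edgeR adjusted p = 0.0538 to 0.831). In the blocked fit both were made with any 1 experiment left out (edgeR adjusted p = 6.33e-05 to 0.042).

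The same direction was seen at the neighbouring times without a call in the unblocked fit. Klf4 in acceptors was 9.03 ± 6.11 CPM at 0 min (n = 3), 13.1 ± 3.73 at 15 min, 16.8 ± 5.13 at 150 min (each n = 4) and 12.7 ± 2.15 at 300 min (n = 3). With the block Klf4 was also called at 15 min (1.31, edgeR adjusted p = 0.0234) and at 150 min (1.65, adjusted p = 0.00169), where the unblocked values were 0.446 and 0.100. Without the block, DESeq2 and edgeR with untreated libraries kept separate also called it at 150 min, where they called 97 of 8567 and 92 of 13222 genes. Kept separate, same-numbered untreated libraries count as independent samples. Their counts lay closer together than those of other untreated pairs (chi-square per degree of freedom 10.3 and 12.1, against 24.2 to 288). At 300 min the difference was 1.20 (SE 0.45, edgeR adjusted p = 0.836), higher in 3 of 3 experiments with no overlap, and at 0 min it was 0.69 (SE 0.45, adjusted p = 0.954), higher in 2 of 3.

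Klf4 was the only member called in acceptors, in 2 of 42 tests and, with the block, in 4. Over all genes, 0% were called at 0, 15 and 300 min, 0.114% at 30 min, 0.0683% at 60 min and 0.137% at 150 min. With the block 2.25% of all genes were called at 15 min, 3.6% at 30 min, 4% at 60 min and 4.78% at 150 min. The blocked call at 15 min was not made without experiment 1 or experiment 2 (edgeR adjusted p = 0.190 and 0.177). That at 150 min was made with any 1 experiment left out (0.00113 to 0.0494). The 6 comparisons share the untreated libraries. The oligodendrocyte list summed to 75.3 to 266.4 CPM over the acceptor samples, beside 116 to 573 CPM in untreated cells, with 1 of 42 tests called and 10 with the block, all lower. The astrocyte list summed to 3.74 to 37.1 CPM, beside 6.36 to 135 CPM, with 0 of 42 tests called by edgeR, 12 at an unadjusted p under 0.05 and 5 called with the block, all lower. The part of such cells in the Klf4 result was not tested.

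**Figure D2:**
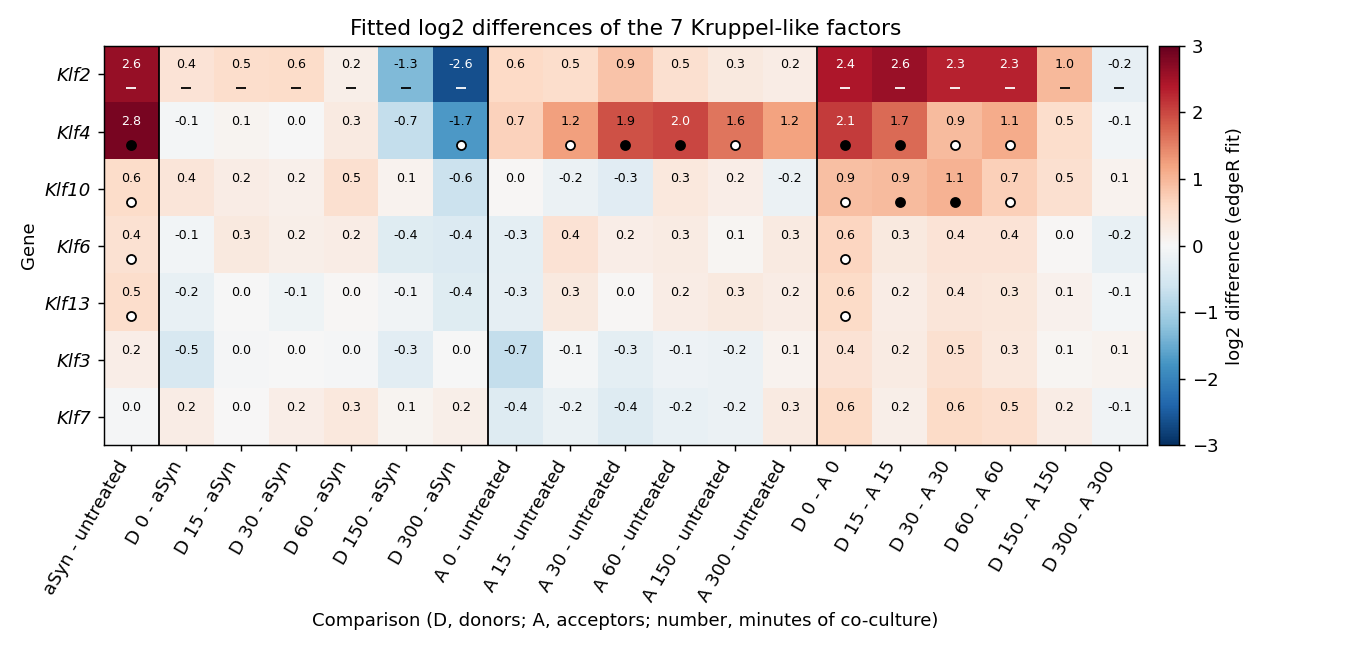
Fitted log2 differences of the 7 genes (rows) in 19 comparisons (columns; D, donors; A, acceptors; number, minutes of co-culture), coloured from -3 to 3. Filled circles mark edgeR adjusted p under 0.05, open circles the same only with the experiment number as a block, and dashes Klf2 values that were not tested. Klf4 carries most circles, and Klf10 carries them between donors and acceptors and an open one for aSyn against untreated cells. Klf6 and Klf13 carry open circles for aSyn against untreated cells and between donors and acceptors at 0 min. Klf3 and Klf7 carry none.

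Donors and acceptors sorted apart differed in Klf4 and Klf10 early in co-culture. Klf4 was 41.4, 41.9 and 31.7 CPM in donors at 0 min and 14.1, 10.7 and 2.25 CPM in acceptors, a log2 difference of 2.10 (SE 0.49, edgeR adjusted p = 0.0438). At 15 min it was 47.3, 40.7, 39.2 and 42.4 CPM against 15.8, 15.6, 7.79 and 13.3 CPM, a difference of 1.70 (SE 0.42, edgeR adjusted p = 0.0310). Donors were higher in every experiment at both times and no samples overlapped. In the unblocked fit the call at 0 min was lost without any 1 of experiments 1, 2 and 3 (edgeR adjusted p = 0.176 to 0.446). That at 15 min was lost without experiment 1 or experiment 2 (0.228 and 0.190). In the blocked fit both were made with any 1 experiment left out (edgeR adjusted p = 8.96e-05 to 0.0167). At 30 and 60 min the differences were 0.94 (SE 0.41, edgeR adjusted p = 0.339) and 1.10 (SE 0.43, adjusted p = 0.343), which the block called (adjusted p = 0.0153 and 0.0311). The blocked call at 30 min was not made without any 1 of experiments 1, 2 and 3 (edgeR adjusted p = 0.0557 to 0.0973), nor that at 60 min without any 1 of experiments 1, 2 and 4 (0.0548 to 0.155). By 150 and 300 min they were 0.53 and -0.08.

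Klf10 (chromosome 15, 38291463 to 38300706, minus strand) was higher in donors than in acceptors at 15 and 30 min. At 15 min it was 47.7, 37.2, 49.6 and 29.6 CPM in donors and 20.1, 22.4, 25.6 and 17.0 CPM in acceptors, a log2 difference of 0.95 (SE 0.22, edgeR adjusted p = 0.0217). At 30 min it was 44.4, 40.7, 52.7 and 19.95 CPM against 19.0, 18.6, 20.03 and 18.4 CPM, a difference of 1.05 (SE 0.22, edgeR adjusted p = 0.00743). Experiment 4 was the lowest donor sample both times, and without it the differences were 0.99 and 1.26. Without experiment 1, 2 or 3 neither was called in the unblocked fit, at 0.85 to 1.04 (edgeR adjusted p = 0.0786 to 0.271). With the block both were called with any 1 experiment left out (edgeR adjusted p = 2.56e-06 to 0.0214).

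The Klf10 difference between donors and acceptors was 0.90 at 0 min (SE 0.25, edgeR adjusted p = 0.144, blocked 0.00475) and 0.72 at 60 min (SE 0.23, adjusted p = 0.191, blocked 0.0103). The blocked call at 0 min was lost without experiment 2 or experiment 3 (edgeR adjusted p = 0.0623 and 0.141), and that at 60 min without experiment 1 or experiment 2 (0.0995 and 0.0791). The donor samples at 0 min, 46.6, 44.9 and 45.9 CPM, all lay above the acceptor samples, 29.5, 22.9 and 21.5 CPM. By 300 min donors stood at 24.5, 22.0, 22.1 and 22.2 CPM and acceptors at 21.3 ± 6.87 CPM (n = 3), a difference of 0.09. The untreated level of Klf10 was 24.1 ± 4.42 CPM (n = 4).

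Of 36 tests between donors and acceptors 4 were called, all higher in donors. At 0 min 1 of 6 members was called where 0.251% of all genes were, at 15 min 2 where 0.888% were, and at 30 min 1 where 0.805% were. No member was called at 60, 150 or 300 min, where 0.418%, 0.167% and 0.0304% of all genes were. With the block 10 tests were called, all higher in donors: 4 of 6 at 0 min and 2 of 6 at 15, 30 and 60 min, where 4.28%, 9.57%, 10.8% and 6.7% of all genes were called. Leaving out 1 experiment in that fit left 4 to 9 calls. These included Klf6 and Klf13 at 0 min, by 0.64 (edgeR adjusted p = 0.0157) and 0.58 (adjusted p = 0.0439), which were not called without any 1 of experiments 1, 2 and 3. Beside these values, Pecam1 was also higher in donors at 15 and 30 min (2.91 and 3.45, edgeR adjusted p = 0.0351 and 0.0107). It reached no more than 3.06 CPM in any sample. These were the only calls in 30 tests of the 5 endothelial markers with a row, and the block called 4. The 5 markers summed to 61.6 to 84.9 CPM in donors and 43.5 to 61.5 in acceptors at 15 min. At 30 min they summed to 53.9 to 78.5 and 37.3 to 96.6 CPM. The part of endothelial cells was not tested.

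Across the 6 donor times, an F test in edgeR called none of the 6 members, with 2 at an unadjusted p under 0.05. The same test called 0.0607% of all genes. DESeq2 called 2 members, where it called 26 of 11362 genes. Klf4 and Klf10 both had an edgeR adjusted p of 0.333. With the block Klf4 (edgeR adjusted p = 0.00196), Klf10 (0.00658) and Klf6 (0.0162) were called, where 0.577% of all genes were. Leaving out 1 experiment in the blocked fit left 0 to 2 calls, 0 without experiment 1 or experiment 2. Across the acceptor times edgeR called no member, with 1 at an unadjusted p under 0.05, where it called 0.00759% of all genes. DESeq2 and the block called no member there either, where they called 34 of 13148 and 18 of 13169 genes. The edgeR test of whether donor and acceptor time courses differed also called no member, with 2 at an unadjusted p under 0.05. It called 0% of all genes. DESeq2 and the block called no member for the time courses either, where they called 4 of 13148 and 6 of 13169 genes.

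Klf4 lay below its aSyn-only level in donors and above its untreated level in acceptors at 150 and 300 min, so the difference between these changes was tested at each time, a test added after the values were seen. The donor change from aSyn-only cells minus the acceptor change from untreated cells was -2.31 at 150 min (SE 0.58, edgeR adjusted p = 0.464) and -2.93 at 300 min (SE 0.61, edgeR adjusted p = 0.0851). In the blocked fit they were -2.37 (edgeR adjusted p = 0.00386) and -2.87 (adjusted p = 0.00115). At 0, 15, 30 and 60 min the unblocked values were -0.75, -1.15, -1.90 and -1.74, called in neither fit (blocked edgeR adjusted p = 0.0584 to 0.772). Each value also equals the donor difference from acceptors minus the aSyn difference from untreated cells, -0.08 and 2.85 at 300 min. It therefore includes the aSyn rise of Klf4 already reported above. Over all genes the test called 0.0152% at 150 min and 0% at 300 min, or 0.957% and 0.737% with the block. No other member was called at either time in either fit. By 300 min the Klf4 mean was 12 ± 2.26 CPM in donors and 12.7 ± 2.15 in acceptors, beside 5.45 ± 3.05 in untreated cells.

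Klf6 (chromosome 13, 5861482 to 5870394, plus strand) and Klf13 (chromosome 7, 63886351 to 63938915, minus strand) differed between experiments at least as much as between groups. Klf6 was 393 ± 88.7 CPM in untreated and 536 ± 146 CPM in aSyn-only cells (each n = 4). Its donor means ran from 653 ± 237 CPM at 15 min to 405 ± 81.05 at 300 min, and its acceptor means from 322 ± 101 at 0 min to 534 ± 219 at 15 min. Experiment 3 lay below the group mean of log2 CPM in 13 of 13 samples and experiment 4 above it in 12 of 12. Experiment accounted for 63.6% of the variation of Klf6 and group for 26.2%.

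Klf13 was 101 ± 22.0 CPM in untreated and 145 ± 25.5 CPM in aSyn-only cells (each n = 4). Its donor means ran from 113 ± 29.8 CPM at 300 min to 149 ± 21.9 at 60 min and its acceptor means from 83.1 ± 23.5 at 0 min to 124 ± 25.4 at 15 min. Group and experiment each accounted for 39.8% of its variation, and experiment 4 was above the group mean in 12 of 12 samples. Klf13 overlaps E030018B13Rik on the opposite strand, and whether counting used the strand is not stated.

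**Figure D3:**
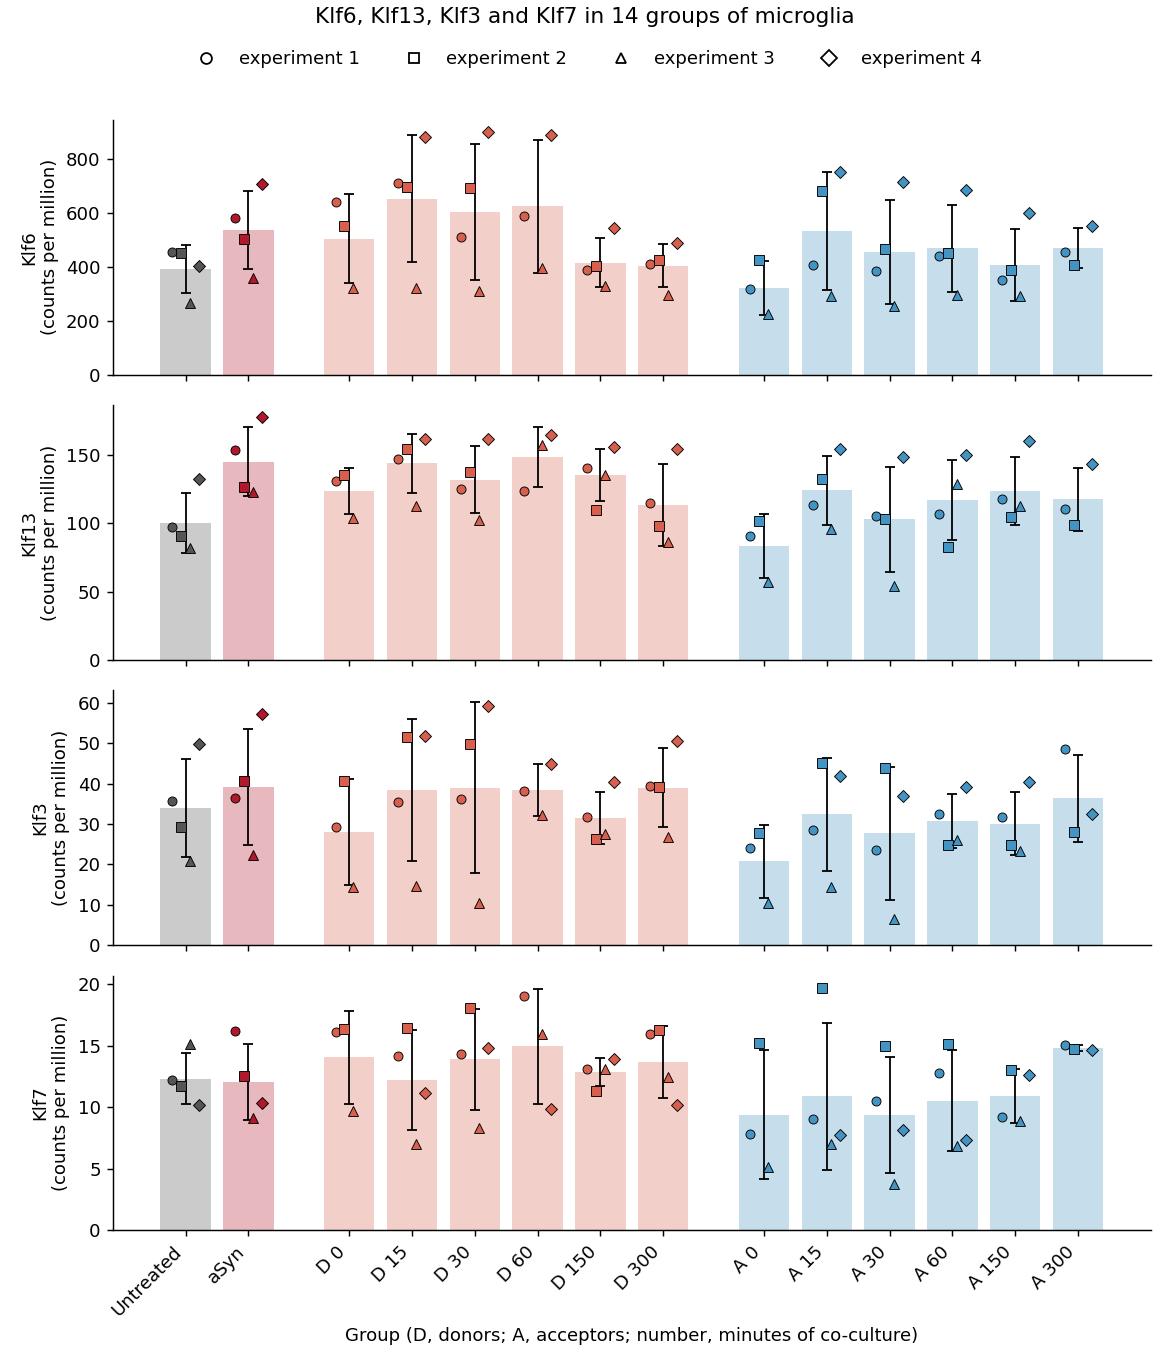
Klf6, Klf13, Klf3 and Klf7 in CPM (vertical axis, linear, from 0) in the 14 groups (horizontal axis; D, donors; A, acceptors; number, minutes of co-culture). Bars are group means, error bars 1 SD over 3 or 4 samples, and symbols single samples by experiment. The triangles of experiment 3 lie low in Klf3 and Klf6, below the group mean of log2 CPM in 13 of 13 samples for each.

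Klf3 (chromosome 5, 64803388 to 64832901, plus strand) and Klf7 (chromosome 1, 64029447 to 64122282, minus strand) were not called in any comparison, with or without the block. Klf3 ranged from 6.40 to 59.3 CPM over the 52 samples, and its fitted log2 differences from -0.72 to 0.49, with edgeR adjusted p-values of at least 0.722. It was 33.9 ± 12.2 CPM in untreated and 39.1 ± 14.4 CPM in aSyn-only cells (each n = 4), and experiment 3 was the lowest sample in both. Experiment accounted for 57.9% of its variation and group for 16.9%. Klf7 ranged from 3.73 to 19.7 CPM, its log2 differences from -0.39 to 0.58 with edgeR adjusted p-values of at least 0.547, and it was 12.3 ± 2.07 CPM in untreated and 12.1 ± 3.10 CPM in aSyn-only cells.

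Other Kruppel-like factors were mostly sparse, except Klf16, whose median lay above the 12.6 CPM of the member Klf7. Of 10 listed, 8 had a row and 5 passed the filter, with medians over samples of 13.8 CPM for Klf16, 4.51 for Klf9, 4.27 for Klf11, 1.00 for Klf12 and 0.306 for Klf8. edgeR called none of them in any comparison. For aSyn against untreated cells 1 of the 5 had an unadjusted p under 0.05, and it was called with the block, Klf16, a GC-box-binding repressor (0.66, edgeR adjusted p = 0.00159), where 19.2% of all genes were. With the block Klf16 was also higher in acceptors at 15, 30 and 60 min (0.76, 0.53 and 0.64, edgeR adjusted p = 0.00361, 0.0392 and 0.0106) and lower in donors at 300 min against aSyn-only cells (value -0.63, adjusted p = 0.0485). Klf11 was higher in donors than in acceptors at 0 min with the block (1.24, edgeR adjusted p = 0.0315). The median log2 difference of these 5 for aSyn against untreated cells was -0.86, against -0.04 over all genes.

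The 12 listed genes upstream of Klf2, the Map3k2, Map3k3, Map2k5 and Mapk7 kinases, the Mef2 and Foxo factors and the class II histone deacetylases that bind Mef2, all passed the filter, and edgeR called none in any comparison. For aSyn against untreated cells 4 of 12 had an unadjusted p under 0.05 and the block called 2, both lower, Mef2c (value -1.19, edgeR adjusted p = 0.00107) and Hdac7 (value -0.70, adjusted p = 0.0330), a share no larger than the 19.2% of all genes. Between donors and acceptors the block made 9 calls in 72 tests, all lower in donors, among Hdac4, Hdac5 and Hdac7: 3 of 12 at 15 and 30 min, 2 at 60 min and 1 at 150 min. The same fit called 9.57%, 10.8%, 6.7% and 5.19% of all genes at these times. At 15 min these stood at -0.65, -0.69 and -0.96 (edgeR adjusted p = 0.00639, 0.00446 and 0.00790). Over the 72 tests of donors against aSyn-only cells, edgeR called none of the 12, with none at an unadjusted p under 0.05 and none with the block. The median of the 12 for donors at 300 min against aSyn-only cells was 0.02, against 0.01 over all genes.

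Of 13 listed cofactors and regulators of Kruppel-like factors, Ctbp2, the corepressor bound by Klf3, was called lower in donors than in acceptors at 15 min (value -0.46, SE 0.12, edgeR adjusted p = 0.0497) and 30 min (value -0.49, SE 0.12, edgeR adjusted p = 0.0348). These were 2 calls in 78 tests over 6 times, and 0.888% and 0.805% of all genes were called at 15 and 30 min. No other listed cofactor was called without the block. With the block 5 of these 78 tests were called, all lower, where 182 to 1416 of 13169 genes were called by time. For acceptors against untreated cells it called 4 of 78, all lower, beside 82 to 630 genes. For aSyn against untreated cells it called 3 of 13 cofactors, all lower, beside 19.2% of all genes. Of 16 listed targets 13 passed the filter, and edgeR called none for aSyn against untreated cells, with 3 at an unadjusted p under 0.05. The block called 5 there, Nos2, Ccl5, Tgfbr1 and Cdkn1a higher and Eng lower, where 19.2% of all genes were called, with a median of 0.32 over the 13 against -0.04 over all genes. Nos2, the inducible nitric oxide synthase, had the largest value with the block (5.65, edgeR adjusted p = 2.06e-05). Thbd, the anticoagulant receptor thrombomodulin and a Klf2 target in endothelium, was at 0.34 (SE 0.39, edgeR adjusted p = 0.713).

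The genes whose 14 group levels were most like those of Klf2 were taken from 881 candidates with a mean of at least 10 CPM and a range of at least 1 log2 unit. The likeness is a Pearson correlation over 14 group levels, with the experiment effect removed, and is given as a description because all levels come from the same libraries. The 10 highest were Rara (0.943), Hilpda (0.943), Tsc22d3 (0.942), Baiap2 (0.930), Ralgds (0.926), Ier2 (0.923), Fosb (0.922), Tmem198b (0.919), Fbxo32 (0.918) and Rhov (0.913). Among the members Klf4 reached 0.902, Klf6 0.882, Klf10 0.833, Klf13 0.743, Klf7 0.390 and Klf3 0.350.

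Tsc22d3, which encodes the glucocorticoid-induced leucine zipper, was 24.8 ± 12.2 CPM in untreated cells, 93.0 ± 36.1 in aSyn-only cells, 96.3 ± 26.0 in donors at 15 min and 38.0 ± 15.2 in donors at 300 min (each n = 4). Fosb, an AP-1 subunit, was 2.52 ± 1.64, 15.1 ± 4.95, 23.7 ± 9.57 and 2.22 ± 0.884 CPM in the same groups. Rara, the retinoic acid receptor alpha, had the highest correlation but a small range, with 11.6 ± 2.59, 17.8 ± 3.29, 20.7 ± 1.16 and 12.3 ± 1.45 CPM. Fbxo32, a ubiquitin ligase subunit known from muscle wasting, was 6.14 ± 1.45, 18.6 ± 3.86, 25.0 ± 5.43 and 5.78 ± 0.718 CPM. In acceptors at 60 min the fitted level of Fosb was 1.99 log2 units above untreated cells and that of Klf2 0.56, a difference that was not tested. Fosb spread widely between samples there, at 15.3 ± 17.6 CPM (n = 4).

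**Figure D4:**
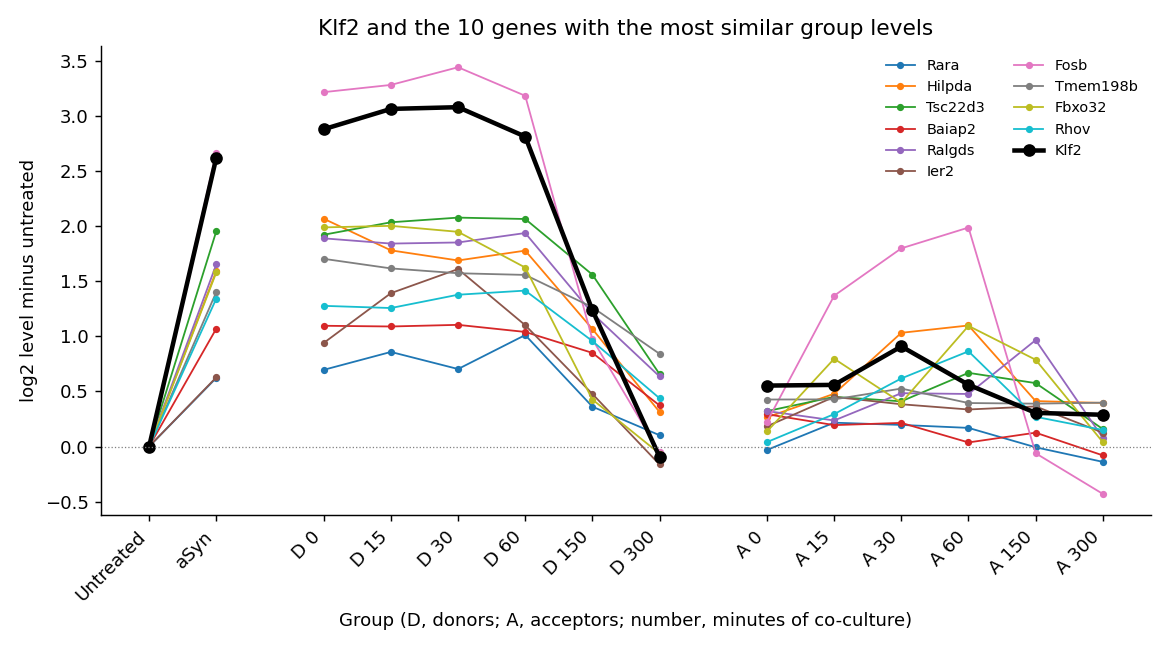
Fitted log2 level minus untreated (vertical axis) of Klf2 (thick black line) and the 10 genes with the highest correlation to it over 14 groups (horizontal axis; D, donors; A, acceptors; number, minutes of co-culture). Points are group levels from a fit of group and experiment, and lines join groups of 1 population. Klf2 stands 2.62 above untreated in aSyn-only cells and -0.09 from it in donors at 300 min.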

How the data were processed

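Gene counts from 3′ mRNA libraries (QuantSeq FWD, single reads, HiSeq2500) of 54 microglia samples were used as deposited by the authors. Per the submitters' processing notes STAR, Partek and DESeq2 were used with mm10, and versions and the use of strand are not given in the sources used here. Each table column was matched to its sample by the library name in the labels. The untreated libraries that share a number were summed. edgeR 4.0.16 in R 4.3.3 was run with TMM scaling, filterByExpr by group (minimum count 10, 13169 genes kept), group means over all 52 samples and the quasi-likelihood F test, with Benjamini-Hochberg adjustment over all genes and calls at 0.05. Nothing states that the numbered samples came from separate animals beyond their numbers and passages, so p-values measure the spread between these samples, which may be technical.

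The replicate numbers pair the samples: deviations from the group means correlated between same-numbered samples at 0.199 or more in every pair of the comparisons, with means of 0.339 to 0.593, so blocked fits stand beside results that they change. The experiment 4 libraries carry a separate run of facility numbers. The ribosomal gene Rn45s took 13.4% to 22.3% of their counts, against 1.42% to 6.78% in experiment 3. It took 5.17% to 13.5% in experiment 1 and 4.17% to 13.1% in experiment 2. Its part in the differences between experiments was not tested. Alternatives were DESeq2 1.42.0, its size factors, no filter, only the groups compared, untreated libraries kept separate, the ribosomal gene Rn45s left out, and each experiment left out. On data simulated for aSyn against untreated cells (13169 genes), 14 of 100 genes changed 2-fold and 90 of 100 changed 4-fold were recovered, with 7 false calls. The simulation gave every gene the same spread of 38.1% and held no experiment effect. It changed only genes with a mean of at least 10 CPM. The 7 genes and all lists were chosen with earlier results of these data known. Named genes are the 7 members, up to 4 called genes per comparison of the other Kruppel-like factors and upstream genes, and the 10 genes most like Klf2, and listed genes outside that rule were named after their values were seen.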

Additional observations from a re-analysis of the deposited data

Results flagged for a closer look

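Of 70 groups of 4 samples, 3 held a sample far from the others, and chance flags about 1 in 20 such groups. Klf4 in donors at 30 min was 52.9 CPM in experiment 4, where the other samples stood at 33.8 to 36.8 CPM. Klf7 in acceptors at 15 min was 19.7 CPM in experiment 2, against 7.02 to 9.01 CPM. Klf10 in donors at 300 min was 24.5 CPM in experiment 1, against 22.0 to 22.2 CPM.

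In 3 cases every experiment moved one way in donors against aSyn-only cells and the opposite way in acceptors against untreated cells. The donor change minus the acceptor change of Klf4 was -2.31 at 150 min (edgeR adjusted p = 0.464, blocked 0.00386) and -2.93 at 300 min (edgeR adjusted p = 0.0851, blocked 0.00115). That of Klf13 at 300 min was -0.58 (SE 0.33, edgeR adjusted p = 0.999, blocked 0.313). Each such value includes the difference between aSyn-only and untreated cells.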

How the results depend on the processing

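With the replicate number as a block, edgeR's calls among the members went from 1 to 4 for aSyn against untreated cells, from 0 to 1 for donors against aSyn-only cells, from 2 to 4 for acceptors against untreated cells, from 4 to 10 for donors against acceptors and from 0 to 3 for donors over time, and stayed at 0 for acceptors over time and for the comparison of the time courses. Fitting only the groups compared gave 0 calls for acceptors against untreated cells, 1 for donors against acceptors and 1 for donors over time. Size factors, no filter and Rn45s left out each gave 1 call for acceptors against untreated cells. For this comparison DESeq2 and untreated libraries kept separate each gave 3, adding Klf4 at 150 min. DESeq2 also gave 1 for donors against aSyn-only cells and 2 for donors over time. Leaving out 1 experiment without the block gave 1 to 2 calls for aSyn against untreated cells, 0 for acceptors against untreated cells, 0 to 6 for donors against acceptors and 0 to 1 for donors over time. The same with the block, chosen after seeing the data, gave 1 to 3, 3 to 4, 4 to 9 and 0 to 2 in that order, 0 to 2 for donors against aSyn-only cells and, without experiment 4, 1 for the time courses. The cause of these differences was not tested. Of 1995 alternative values of the members' log2 differences, 41 gained a call and 28 lost one. Another 29 moved by at least the standard error of the reported difference. The sign changed in 119, none of them called and none with a reported difference beyond 0.39 in size, and 0 called values reversed. Of the 1995, 195 belong to Klf2 comparisons without a test. Scaling moved the median of all genes by at most 0.02 log2 units. With 3 or 4 samples per group and the same unblocked spread for every gene, 2-fold changes were seldom recovered on simulated data. That rate does not describe members whose own spread differs.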
